A study of Mus musculus with 20 samples.

Results

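The 10 genes described here act in, or regulate, the passage of fatty acids from blood lipoproteins into heart muscle. They were followed in mouse hearts of both sexes on 2 diets. They were a named list, chosen with earlier results of these data known. Lpl, Angptl4, Gpihbp1, Lmf1 and Vldlr belong to the lipoprotein lipase axis, and Cd36, Slc27a1, Fabp3, Fabp4 and Fabp5 to fatty acid uptake. They are 10 of the 49005 genes with counted exon pieces, and all 10 are among the 18069 genes that passed the filter on low counts. Polyadenylated RNA from hearts of wild type C57BL/6 mice aged 12 weeks was sequenced in 4 groups: 5 high-fat females, 5 chow females, 5 high-fat males and 5 chow males. The sample names give the diets as PA and Chow while the series text gives chow and a high-fat diet; PA is taken to be that diet because no other name is left. Chow male 4 was counted per gene rather than per exon piece and was left out, which leaves 4 chow males. Time on diet, hour of collection and whether samples came from separate animals are not given in the sources used here, so the spread behind each p-value may be partly technical.

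The heart burns mostly fatty acids, and much of its supply arrives as triglyceride in lipoproteins. Lipoprotein lipase, made by heart muscle cells and matured with the help of Lmf1, is carried to the capillary surface by Gpihbp1, where it releases fatty acids, while Angptl4 inactivates it. Vldlr binds triglyceride-rich lipoproteins, Cd36 and Slc27a1 take fatty acids up, and the Fabp proteins bind them inside cells. Angptl4, Cd36, Slc27a1, Fabp3 and Fabp4 are known targets of PPAR transcription factors, which fatty acids activate. These are examples and not a full list of targets. The genes named were all higher in every high-fat male than in every chow male, and Lpl was lower. The named genes therefore do not show how targets as a set responded. Whether Lpl, Vldlr and the other genes are also targets was not examined, and a shared PPAR response was not tested.

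Upstream sequences were available from the RefSeq table (GRCm38.p6) for 5 of the 10 genes, with 8 annotated starts: Cd36, Slc27a1, Vldlr, Fabp3 and Lmf1. The 250 bases before 1 start each are shown for the 3 of these genes that were called over 19 libraries in a comparison below. They run 5′ to 3′ on the gene's own strand. Capitals mark AGGTCA, the half-site that nuclear receptors such as PPAR bind, and CACGTG, the E-box that clock transcription factors bind, each searched on both strands.
Cd36, chr5:17835897-17836146, minus strand: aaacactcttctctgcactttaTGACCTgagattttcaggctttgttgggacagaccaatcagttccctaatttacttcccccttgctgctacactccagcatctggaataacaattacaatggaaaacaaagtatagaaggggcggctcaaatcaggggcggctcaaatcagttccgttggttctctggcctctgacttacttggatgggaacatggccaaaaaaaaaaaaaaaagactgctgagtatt
Vldlr, chr19:27216234-27216483, plus strand: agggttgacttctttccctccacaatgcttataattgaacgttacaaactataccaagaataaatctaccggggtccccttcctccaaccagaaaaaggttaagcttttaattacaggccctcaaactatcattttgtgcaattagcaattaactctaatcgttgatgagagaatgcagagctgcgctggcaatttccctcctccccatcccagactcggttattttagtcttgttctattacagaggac
Slc27a1, chr8:71570344-71570593, plus strand, the most downstream of its 3 starts: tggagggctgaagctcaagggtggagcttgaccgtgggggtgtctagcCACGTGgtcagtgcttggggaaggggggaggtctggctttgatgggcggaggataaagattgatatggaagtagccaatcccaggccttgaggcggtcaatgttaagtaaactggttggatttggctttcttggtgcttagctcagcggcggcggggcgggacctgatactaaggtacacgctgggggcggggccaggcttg
The Cd36 window holds 1 AGGTCA match, on the opposite strand, and the Slc27a1 window holds 1 CACGTG match. Neither motif occurs in the windows of the other 6 starts of the 5 genes, so the Slc27a1 start shown is the only 1 of its 3 with a match. No window holds 2 AGGTCA copies 1 base apart. Of all 32851 RefSeq windows of this length, 14.0% hold AGGTCA, 6.02% hold CACGTG and 0.0335% hold AGGTCA copies 1 base apart.

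The values below are CPM, a gene's summed exon-piece counts as a share of the library's total, scaled by TMM, a normalization between libraries. Library totals ran from 57805110 to 85794067 piece counts. High-fat females 4 and 5 stood apart from the other 17 libraries. Their counts leaned to GC-rich genes, with slopes of 0.52 and 0.78 log2 per 10 percentage points of GC against -0.14 to 0.06 elsewhere. The nuclear RNA Malat1 had 117 and 63.9 CPM in them and 1132 to 1533 elsewhere, so the main results are also given over the other 17 libraries. Heart muscle markers summed to 91791 CPM or more in every library, while 9 adipocyte markers together did not exceed 4.8 CPM in any library and the adipokine Adipoq stayed at or below 0.455 CPM. A gene was called at a Benjamini-Hochberg adjusted p below 0.05 over all genes tested, in edgeR's quasi-likelihood test.

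**Figure D1:**
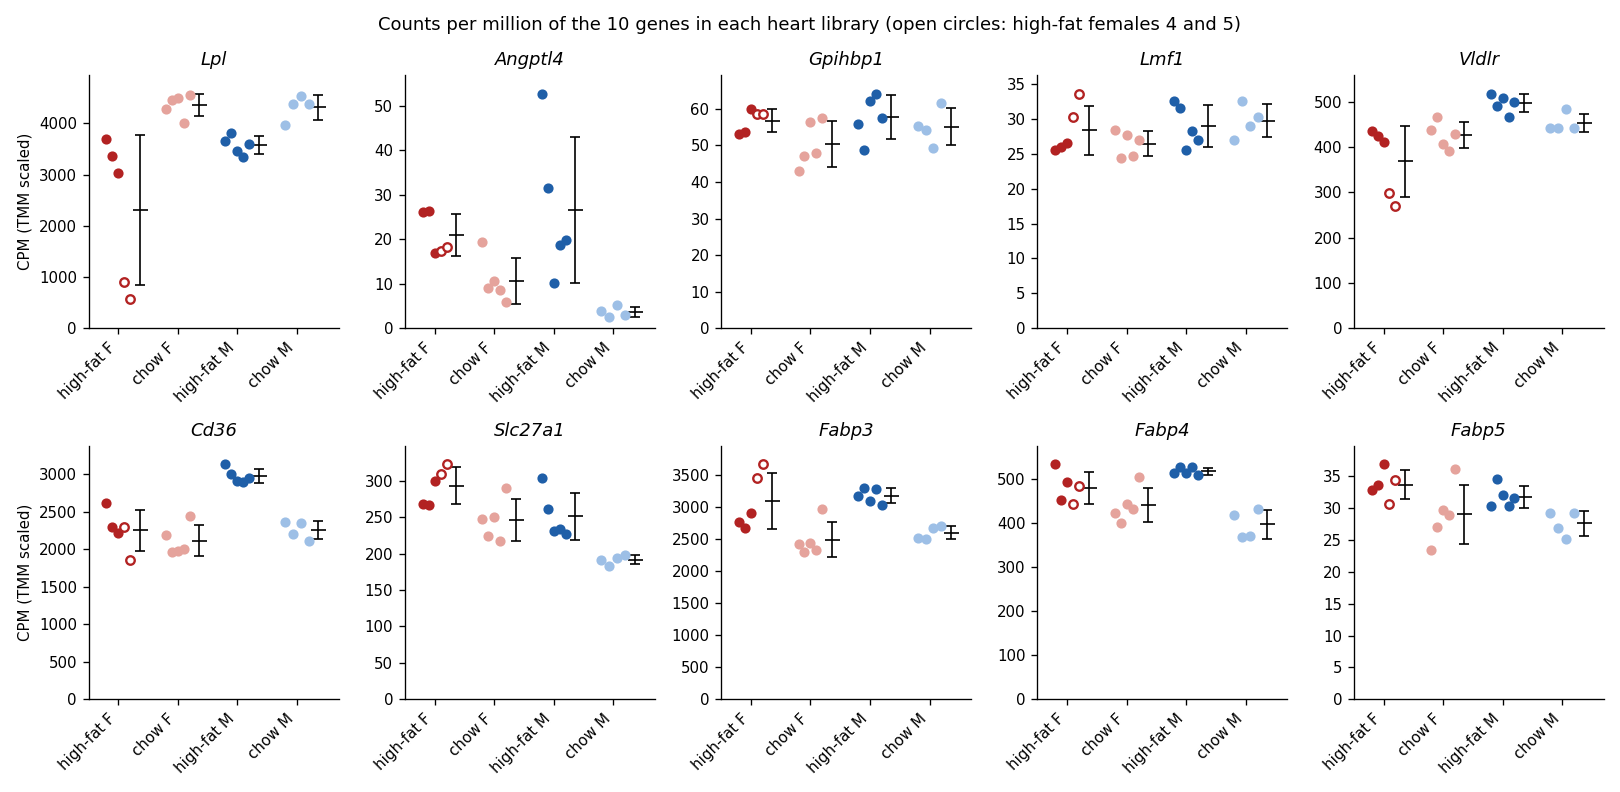
CPM (TMM scaled, linear axes from 0) of the 10 genes in 19 heart libraries. Each circle is 1 library, open circles are high-fat females 4 and 5, and the black mark beside each group is its mean ± SD. Lpl in every high-fat library lay below every chow library of the same sex, and Angptl4, Cd36, Slc27a1 and the 3 Fabp genes in every high-fat male lay above every chow male.

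On the high-fat diet Angptl4, Cd36 and Fabp4 rose in male hearts, and Lpl was below chow in every library of both sexes. In males 3 of 10 genes were called, all higher, where 0.764% of all genes tested were called. In females 0 of 10 were called by edgeR, where 2.53% of all genes were. Of the 10, 5 had an unadjusted p below 0.05, as did 3390 of all 18069 genes tested. DESeq2 called 1 of the 10, Fabp3, and 993 of all 18069. Without high-fat females 4 and 5, 6 of 10 were called in males, where 2.59% of all genes were, and 1 of 10, Lpl, in females, where 4.95% of all genes were. The 2 libraries are females, but they enter the spread estimate that the male comparison uses. The median log2 difference over the 10 genes was 0.25 in males against 0 over all genes tested, and 0.15 in females against -0.02.

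The diet effect in females minus that in males was called for 0 of 10 genes, where edgeR called 0.0% of all genes tested. At an unadjusted p below 0.05 there were 4 of the 10 genes (Angptl4, Vldlr, Cd36 and Fabp4) and 1839 of 18069 genes overall. DESeq2 called 58 genes in this comparison, and none of the 10 was among them.

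**Figure D2:**
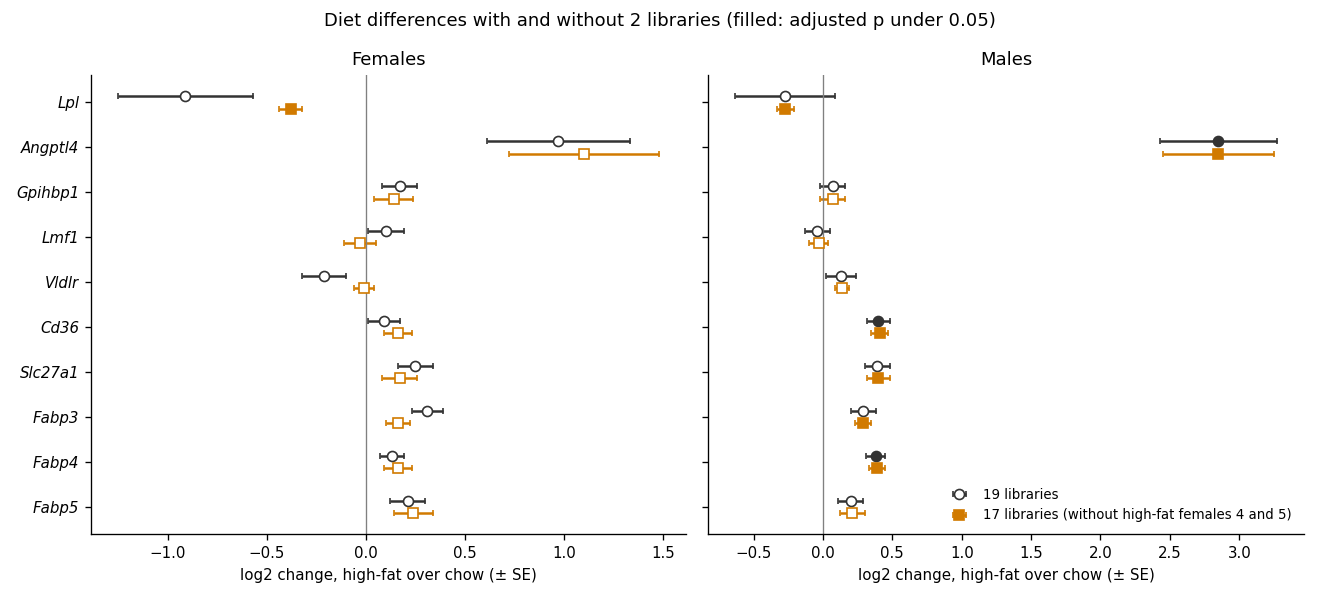
Log2 change of high-fat over chow (± SE from edgeR) of the 10 genes in females (left) and males (right), fitted over 19 libraries (circles) and over 17 without high-fat females 4 and 5 (squares); filled symbols have an adjusted p below 0.05. In males the values differ little between the fits, but the SE of Lpl is 0.06 over 17 libraries and 0.36 over 19; in females Lpl is at -0.38 over 17 and at -0.91 over 19.

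Lpl (ENSMUSG00000015568, chr8:68880491-68907448, plus strand) encodes the lipase itself. It had 3705, 3367, 3026, 913 and 564 CPM in high-fat females 1 to 5, against 4280, 4466, 4491, 4010 and 4558 CPM in chow females. In males it had 3649, 3813, 3465, 3354 and 3590 CPM on the high-fat diet, against 3964, 4381, 4535 and 4376 CPM on chow. Every high-fat library was below every chow library of its sex, and the lowest values were those of the 2 libraries that stand apart.

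Over 19 libraries neither diet difference of Lpl passed the test: it was -0.91 ± 0.34 log2 (SE) in females with an edgeR adjusted p of 0.161, and -0.27 ± 0.36 in males with an adjusted p of 0.999. Without high-fat females 4 and 5, Lpl fell in both sexes, by 0.38 ± 0.06 log2 in females (adjusted p = 0.00178) and by 0.27 ± 0.06 in males (adjusted p = 0.0116). The group mean was then 3366 ± 340 CPM in 3 high-fat females, against 4361 ± 222 in 5 chow females (SD). In males alone, with no female library in the fit, the difference was -0.27 ± 0.05 (adjusted p = 0.00493). The female minus male difference of the diet effect was -0.11 ± 0.08 log2 over these 17 libraries (adjusted p = 0.652).

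The lower Lpl counts ran along the whole transcript. All 16 exon pieces with a mean of at least 50 counts were lower in high-fat than in chow males, by -0.13 to -0.63 log2, and lower in each of the high-fat females than the chow female mean. In high-fat females 1 to 3 together they lay at -0.29 to -0.56. In high-fat female 4 the 10 coding pieces lay at -2.22 to -2.38 log2 and in high-fat female 5 at -2.85 to -2.96. The first and the last coding pieces were low alike. Against the mean of high-fat females 1 to 3, Lpl lay at -1.88 and -2.58 log2 in them, with a GC content of 43.5%, while Vldlr, with 43.8%, lay at -0.50 and -0.65, and Fabp4, with 42.7%, at -0.16 and -0.03.

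Heart muscle cells, which make the lipase, were followed by 10 markers. These summed to 94799 to 101031 CPM in high-fat males against 105498 to 113833 CPM in chow males, with no overlap. In females they summed to 91791 to 108960 CPM on the high-fat diet, median 99703, against 103513 to 111507 CPM on chow, median 110249. Over 19 libraries 1 of 10 was called in females, Tnnt2, by -0.31 ± 0.06 log2 (edgeR adjusted p = 0.014), and 0 of 10 in males. Of all genes tested, 2.53% were called in females and 0.764% in males. Over 17 libraries 7 markers in females and 2 in males were called, all lower, where 4.95% and 2.59% of all genes were. The part of heart muscle cells in the lower Lpl was not tested.

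Angptl4 (ENSMUSG00000002289, chr17:33773750-33781575, minus strand), the secreted inhibitor of the lipase, showed the greatest diet difference of the 10 genes in males. It had 52.8, 31.5, 10.3, 18.7 and 19.8 CPM in high-fat males, against 3.85, 2.60, 5.23 and 3.08 CPM in chow males. The lowest high-fat male was still above the highest chow male, and high-fat male 1 had more than any other library. The rise was 2.85 ± 0.42 log2 (SE; edgeR adjusted p = 0.00242), and it was called under all 31 alternatives, with 2.44 as the lowest value.

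In females Angptl4 had 26.1, 26.3, 17, 17.5 and 18.4 CPM on the high-fat diet, against 19.5, 9.09, 10.6, 8.58 and 5.83 CPM on chow. The groups overlapped through chow female 1. The difference of 0.97 ± 0.36 log2 did not pass the test (adjusted p = 0.159), nor did it without high-fat females 4 and 5 (1.10 ± 0.38, adjusted p = 0.0998). The diet effect in females minus that in males was -1.88 ± 0.54 log2, with an unadjusted p of 0.00266 and an edgeR adjusted p of 0.31, or -1.75 ± 0.56 over 17 libraries (adjusted p = 0.256). On chow, females had more than males, with 10.7 ± 5.21 CPM in 5 females against 3.69 ± 1.15 CPM in 4 males (SD). All 11 exon pieces with enough counts were higher in high-fat than in chow males, by 2.60 to 3.25 log2.

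The genes whose level followed that of Angptl4 most closely over the 19 libraries were led by Ucp3, Pdk4, Chrna2 and Scd4. Likeness was the root mean square difference of the centred log2 CPM, and smaller values mean more alike. It was 0.62 for Ucp3, a mitochondrial carrier, and 0.74 for Pdk4, a kinase that inhibits pyruvate dehydrogenase. For Chrna2, a nicotinic receptor subunit, it was 0.81, and for Scd4, a desaturase, 0.83. The libraries share diet and sex groups, so the likeness is a description. Pdk4 rose by 2.48 ± 0.19 log2 in males (edgeR adjusted p = 1.17e-06) and by 1.45 ± 0.17 in females (adjusted p = 0.000396). Ucp3 had 143, 114, 76.2, 89.0 and 86.4 CPM in high-fat males against 34.1, 40.4, 31.2 and 24.3 CPM in chow males, and like Angptl4 it was higher in females than in males on chow, by 1.47 ± 0.19 log2 (adjusted p = 0.000181).

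**Figure D3:**
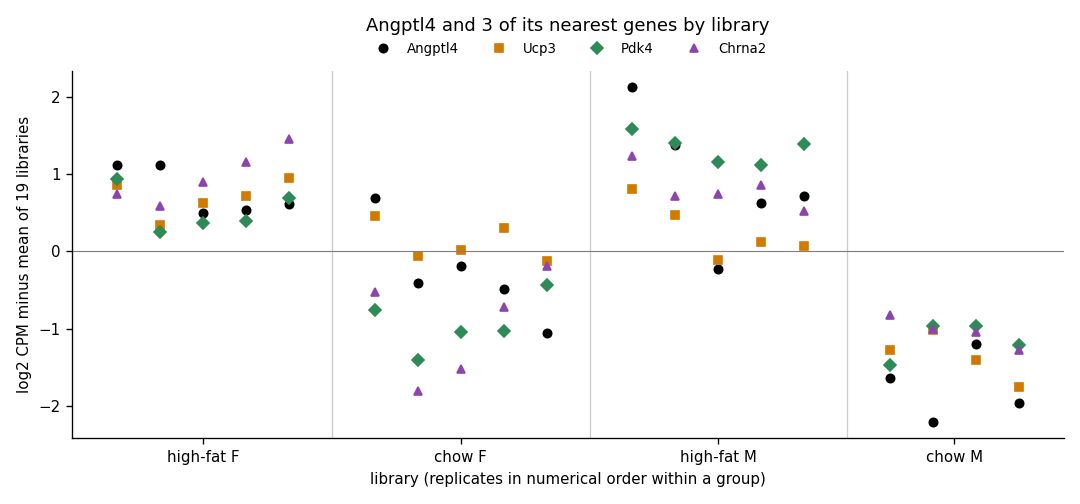
Log2 CPM of Angptl4, Ucp3, Pdk4 and Chrna2 in 19 libraries, each gene minus its own mean over the libraries, with replicates in numerical order within each group. All 4 genes are below their means in every chow male; Pdk4 and Chrna2 are above their means in every high-fat library and below them in every chow library, while Angptl4 is above its mean in chow female 1, Ucp3 in chow females 1, 3 and 4, and both are below their means in high-fat male 3.

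Of 11 PPAR target genes outside the 10, listed for comparison, 9 were called in males and 6 in females, all higher on the high-fat diet. Of all genes tested, 0.764% were called in males and 2.53% in females. Their median differences were 0.47 log2 in males against 0 over all genes tested, and 0.39 in females against -0.02. Over 17 libraries, 10 were called in males and 6 in females, where 2.59% and 4.95% of all genes were. The list is known from earlier results of these samples and is not independent evidence of direction.

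Gpihbp1 and Lmf1, which carry and mature the lipase, were not called in any comparison. Gpihbp1 (ENSMUSG00000022579, chr15:75596628-75599481, plus strand) had 53.1 to 59.9 CPM in high-fat females, median 58.6, against 43.1 to 57.5 in chow females, median 48.0. In males it had 48.8 to 64.2 CPM on the high-fat diet, median 57.4, against 49.3 to 61.7 on chow, median 54.7. The groups overlapped in both sexes, with log2 differences of 0.17 ± 0.09 in females (edgeR adjusted p = 0.29) and 0.07 ± 0.09 in males (adjusted p = 0.999).

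Gpihbp1 is made by capillary endothelium. Of 10 endothelial markers, 4 were called in females, all higher on the high-fat diet (Pecam1, Cdh5, Tie1 and Eng, by 0.20 to 0.31 log2), where 2.53% of all genes were called, and 0 of 10 in males. Over 17 libraries 3 were called in females, without Eng (0.24 ± 0.08, edgeR adjusted p = 0.0804), where 4.95% of all genes were. Summed endothelial markers ran from 1348 to 1447 CPM in high-fat females against 1165 to 1351 CPM in chow females, with all 10 detected. In males they ran from 1332 to 1403 CPM on the high-fat diet against 1210 to 1331 CPM on chow. The sums overlapped in females and did not in males. Their part in the levels of Gpihbp1 and of Fabp4 and Fabp5, which capillary endothelium also makes, was not tested. In whole hearts, fewer cells of a type and less RNA per cell cannot be told apart.

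Lmf1 (ENSMUSG00000002279, chr17:25579174-25662826, plus strand), the endoplasmic reticulum protein that folds the lipase, had 25.5 to 33.6 CPM in high-fat females against 24.4 to 28.4 in chow females. It had 25.5 to 32.6 CPM in high-fat males against 27.0 to 32.6 in chow males. High-fat females 4 and 5 were the highest of their group, at 30.3 and 33.6 CPM. The difference of 0.10 ± 0.09 log2 in females became -0.03 ± 0.08 without them, and neither passed the edgeR test (adjusted p = 0.521 and 0.887).

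Vldlr (ENSMUSG00000024924, chr19:27216484-27254231, plus strand), the lipoprotein receptor, had 436, 425, 412, 299 and 270 CPM in high-fat females, against 438, 467, 407, 392 and 428 CPM in chow females. It had 518, 491, 509, 467 and 500 CPM in high-fat males, against 442, 443, 484 and 443 CPM in chow males. The 3 other high-fat females lay within the range of chow females, and the diet difference in females was -0.21 ± 0.11 log2 over 19 libraries and -0.01 ± 0.05 over 17 (edgeR adjusted p = 0.286 and 0.94). In males it was 0.13 ± 0.11 (adjusted p = 0.912).

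On the high-fat diet Vldlr was lower in females than in males, by -0.43 ± 0.11 log2 (edgeR adjusted p = 0.0163), with no overlap between the groups. Without high-fat females 4 and 5 the difference was -0.23 ± 0.05 (adjusted p = 0.00869), and the sexes still did not overlap. The share of all genes tested without overlap between the sexes was not counted. In the 2 libraries that stand apart, the 23 coding pieces of Vldlr lay at -0.22 to -0.60 log2 against the chow female mean. The 4 pieces beyond the earliest annotated 3′ end lay at -0.69 to -2.13 there, so its level in these libraries depends on which pieces are summed. Over coding pieces alone the sex difference was -0.35 ± 0.08 log2 (adjusted p = 0.00885). It was not called with the libraries' GC slope as a covariate (-0.16 ± 0.06, adjusted p = 0.0766), with only these 2 groups fitted (-0.44 ± 0.13, adjusted p = 0.0984) or over the largest piece (-0.71 ± 0.28, adjusted p = 0.104).

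**Figure D4:**
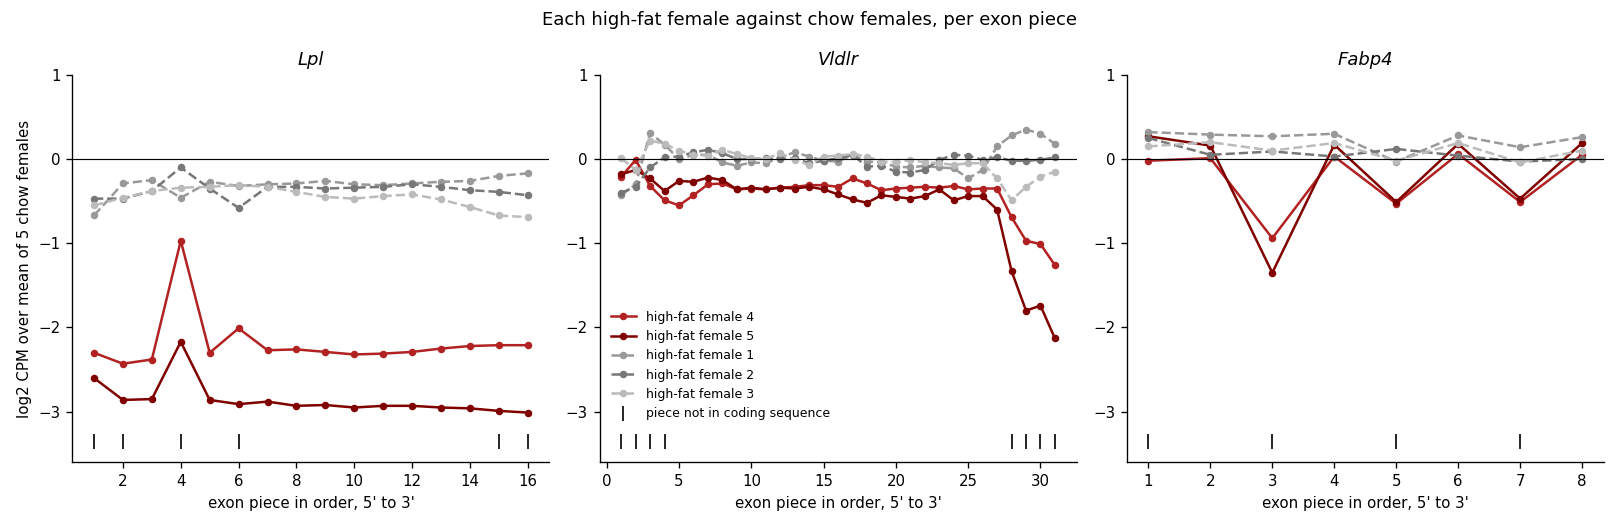
Log2 ratio of each high-fat female's CPM to the mean of 5 chow females, per exon piece in order from 5′ to 3′, for Lpl, Vldlr and Fabp4 (pieces with a mean of at least 50 counts); ticks at the bottom mark pieces outside the coding sequence. High-fat females 4 and 5 are far below the chow mean along all of Lpl, below it at all 31 pieces of Vldlr and lowest at the last 4, and low in 3 noncoding pieces of Fabp4 that lie between its coding exons.

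Cd36 (ENSMUSG00000002944, chr5:17781690-17888801, minus strand), the main fatty acid translocase of heart muscle and endothelium, was higher on the high-fat diet in males. It had 3129, 2999, 2911, 2898 and 2945 CPM in high-fat males, against 2359, 2198, 2347 and 2103 CPM in chow males. The high-fat males lay close together and above every other library of the study. The rise was 0.40 ± 0.08 log2 (SE; edgeR adjusted p = 0.0264). It was lost, with adjusted p from 0.0568 to 0.107 and log2 values from 0.37 to 0.43, when any 1 of chow males 1, 2 and 5 or high-fat males 1, 2, 3 and 5 was left out. The call was also lost with replicate number as a block, and it held under 23 of 31 alternatives.

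In females Cd36 had 2619, 2288, 2210, 2293 and 1851 CPM on the high-fat diet, against 2183, 1959, 1981, 2001 and 2439 CPM on chow. These groups overlapped at both ends, and the difference was 0.09 ± 0.08 log2 (edgeR adjusted p = 0.518), or 0.16 ± 0.07 without high-fat females 4 and 5 (adjusted p = 0.163). Females on the high-fat diet had less Cd36 than males on it, with 2252 ± 274 against 2976 ± 93.7 CPM (SD, n = 5 each). That difference of -0.40 ± 0.08 log2 was called (adjusted p = 0.00377) and stayed called under all 31 alternatives. Over 17 libraries it was -0.33 ± 0.07 (adjusted p = 0.00455).

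Cd36 has start exons at 3 annotated places, and the pieces found in them alone were summed, a choice made after their values were seen and given with no test. The distal start exon lies at chr5:17888711-17888801, the middle one at chr5:17849657-17849792, and the counted part of the proximal one at chr5:17835672-17835717, all on the minus strand. The upstream window printed above ends 179 bases before this proximal exon. On the proximal exon, high-fat males had 25.6, 23.5, 20.4, 22.9 and 23.0 CPM, against 16.1, 12.8, 16.4 and 14.7 CPM in chow males. The distal exon had 53.2 to 60.6 CPM in high-fat males against 40.1 to 45.2 CPM in chow males. The middle exon had 23.9 to 28.8 CPM in high-fat males against 24.6 to 25.7 CPM in chow males.

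The male groups did not overlap at the distal and proximal exons and did overlap at the middle one, where the log2 ratio of means was 0.05, against 0.42 and 0.62. The middle exon held 24.6 ± 0.976% of the start-exon counts in high-fat males (n = 5) and 30.6 ± 1.73% in chow males (n = 4, SD). In females it held 25.1 ± 1.25% on the high-fat diet and 27.8 ± 1.74% on chow (n = 5 each). The share in high-fat males did not overlap that in chow males, while high-fat female 4, at 26.6%, and chow female 4, at 26.2%, crossed.

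**Figure D5:**
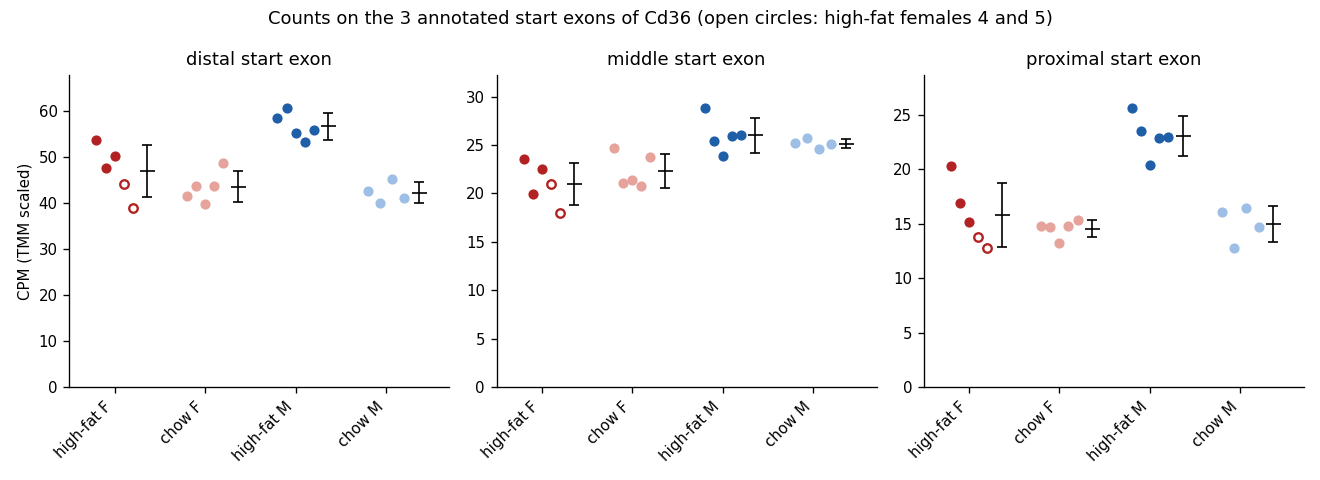
CPM (TMM scaled, linear axes from 0) on the distal, middle and proximal start exons of Cd36 in 19 libraries, with mean ± SD beside each group and open circles for high-fat females 4 and 5. High-fat males are above chow males at the distal and proximal exons, and both male groups lie between 23.9 and 28.8 CPM at the middle exon.

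The 3 genes most like Cd36 over the 19 libraries were Hsdl2, Abcd3 and Mtus1, at 0.08, 0.10 and 0.12 log2 root mean square difference. Abcd3 is a peroxisomal fatty acid transporter, Hsdl2 a peroxisomal dehydrogenase-like protein and Mtus1 a microtubule-associated protein. Hsdl2 had 369, 338, 335, 336 and 323 CPM in high-fat males against 271, 252, 274 and 247 CPM in chow males. Over 17 libraries the 3 nearest were Hsdl2, Etfdh and Slc25a20.

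Slc27a1 (ENSMUSG00000031808, chr8:71568882-71587302, plus strand), a fatty acid transporter that also activates fatty acids with coenzyme A, had 268, 267, 300, 310 and 323 CPM in high-fat females, against 248, 224, 250, 218 and 291 CPM in chow females. It had 304, 261, 231, 234 and 227 CPM in high-fat males, against 192, 183, 194 and 198 CPM in chow males. The male groups did not overlap, and in females chow female 5 lay among the high-fat values. The male difference of 0.39 ± 0.09 log2 was not called by edgeR over 19 libraries (adjusted p = 0.0631) and was called under 9 of 31 alternatives. Among these were DESeq2 (0.40 ± 0.10, adjusted p = 0.0119), the 17 libraries without high-fat females 4 and 5 (0.40 ± 0.08, adjusted p = 0.0119), only the male groups (0.39 ± 0.07, adjusted p = 0.00801) and the GC covariate (0.41 ± 0.08, adjusted p = 0.00586). The call was also gained when chow female 5 or high-fat female 5 alone was left out (adjusted p = 0.0355 and 0.0378). In females the difference was 0.25 ± 0.09 (adjusted p = 0.124), or 0.17 ± 0.09 over 17 libraries (adjusted p = 0.279).

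Fabp3 (ENSMUSG00000028773, chr4:130308595-130315463, plus strand), the muscle fatty acid binding protein, had 2767, 2677, 2899, 3446 and 3662 CPM in high-fat females, against 2420, 2289, 2429, 2329 and 2962 CPM in chow females. It had 3168, 3298, 3089, 3278 and 3034 CPM in high-fat males, against 2514, 2499, 2667 and 2701 CPM in chow males. In females chow female 5 reached into the high-fat range and the high values were those of high-fat females 4 and 5, while the male groups were apart. Fabp3 overlaps Gm10570 and Zcchc17 on the other strand, and no strand setting of the counting is given, so their reads cannot be told apart here.

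The female difference of Fabp3 was 0.31 ± 0.08 log2 (edgeR adjusted p = 0.0543). It was called without chow female 5 (0.38, adjusted p = 0.0221), without high-fat female 1 (0.35, adjusted p = 0.0281) or without high-fat female 2 (0.36, adjusted p = 0.0296). It was 0.16 ± 0.06 without high-fat females 4 and 5 (adjusted p = 0.164). The male difference was 0.29 ± 0.09 over 19 libraries (adjusted p = 0.21) and 0.29 ± 0.06 over 17 (adjusted p = 0.0102).

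Fabp4 (ENSMUSG00000062515, chr3:10204088-10208576, minus strand), a binding protein of endothelium, adipocytes and macrophages, had 533, 451, 493, 442 and 483 CPM in high-fat females, against 422, 401, 442, 431 and 504 CPM in chow females. It had 513, 526, 514, 526 and 509 CPM in high-fat males, against 418, 368, 370 and 432 CPM in chow males. The high-fat males agreed closely and lay above every chow male, and the female groups overlapped. The male rise was 0.38 ± 0.07 log2 (edgeR adjusted p = 0.0127) and was lost without chow male 2 (0.35, adjusted p = 0.0658). In females the difference was 0.13 ± 0.06 (adjusted p = 0.294), or 0.16 ± 0.07 over 17 libraries (adjusted p = 0.182), and the female minus male difference of the diet effect was -0.26 ± 0.09 (adjusted p = 0.392).

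Adipocyte markers were near 0 in all libraries, summing to 0.603 to 2.03 CPM in high-fat males against 0.487 to 1.65 CPM in chow males. Macrophage markers summed to 208 to 254 CPM in high-fat males against 246 to 293 CPM in chow males, with 0 of 9 called. The 4 coding pieces of Fabp4 were 0.37 to 0.39 log2 higher in high-fat than in chow males. In high-fat females 4 and 5 the coding pieces lay at 0.01 to 0.19 log2 against the chow female mean, whereas the 3 noncoding pieces between them lay at -0.47 to -1.35. Those pieces lie between the coding exons and are annotated only in a transcript with retained introns. The genes most like Fabp4 over the 19 libraries were Chkb, Dctn6 and Trim25, at 0.10, 0.11 and 0.12 log2, and over 17 libraries Dbi, Clec1a and Clpx.

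Fabp5 (ENSMUSG00000027533, chr3:10012548-10016607, plus strand), the other endothelial and macrophage binding protein, had 30.6 to 36.9 CPM in high-fat females, median 33.6, against 23.5 to 36.2 in chow females, median 28.9. It had 30.4 to 34.6 CPM in high-fat males, median 31.6, against 25.2 to 29.2 in chow males, median 28.0. The males did not overlap, but the difference of 0.20 ± 0.09 log2 did not pass the edgeR test (adjusted p = 0.567). The female difference of 0.21 ± 0.09 (adjusted p = 0.202) passed when chow female 5 was left out (0.30, adjusted p = 0.0459) and was 0.24 ± 0.10 over 17 libraries (adjusted p = 0.145). Chow female 5 had the highest Lpl, Gpihbp1, Cd36, Slc27a1, Fabp3, Fabp4 and Fabp5 of the chow females and the lowest Angptl4.

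No overlap between high-fat and chow males was found for 7 of the 10 genes (all but Gpihbp1, Lmf1 and Vldlr). Among all genes tested, 7.58% did not overlap in males, while edgeR called 0.764%. In females 1 of 10 did not overlap, Lpl, against 4.53% of all genes tested, while edgeR called 2.53%; without high-fat females 4 and 5 it was again Lpl alone of the 10, against 12.7% of all genes. The high-fat males were lower for Lpl and higher for the other 6.

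Between the sexes on chow, 2 of 10 genes were called, both higher in females, where 3.22% of all genes tested were called. Angptl4 was higher by 1.54 ± 0.41 log2 (edgeR adjusted p = 0.045) and Slc27a1 by 0.36 ± 0.09 (adjusted p = 0.0395). In both cases every female was above every male, but how many of all genes tested did so was not counted. Over 17 libraries the adjusted p was 0.0175 for Angptl4 and 0.00831 for Slc27a1, where 10.5% of all genes were called. The Angptl4 call was lost when any 1 of 15 libraries was left out, with adjusted p from 0.0512 to 0.164 and log2 values from 1.21 to 1.76. It remained without chow female 5, high-fat female 5, high-fat male 1 or high-fat male 3. The Slc27a1 call was lost without chow female 1, 3 or 5, any of the 4 chow males, high-fat female 3 or high-fat male 2, with adjusted p from 0.05 to 0.134 and log2 values from 0.29 to 0.37. With no filter on low counts both calls were lost (adjusted p = 0.0549 for Angptl4 and 0.0672 for Slc27a1).

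Between the sexes on the high-fat diet, 2 of 10 genes were called, Vldlr and Cd36, both lower in females, where 10.3% of all genes were called; over 17 libraries the same 2 were called where 10.4% of all genes were. With the GC covariate the count was also 2, but of Cd36 and Fabp3: Fabp3 was then lower in females by -0.24 ± 0.07 log2 (edgeR adjusted p = 0.0296), against -0.04 without the covariate (adjusted p = 0.78), and Vldlr was not called. Slc27a1 was 0.22 ± 0.09 log2 higher in females (adjusted p = 0.103), and passed without high-fat male 1 (0.30, adjusted p = 0.0301). Clock genes differed between the sexes as well: of 12, 6 were higher and 3 lower in females on each diet. Dbp, a clock output gene, had 78.2 to 137 CPM in high-fat females against 10.8 to 19.4 CPM in high-fat males, and 72.6 to 111 CPM in chow females against 7.78 to 11.2 CPM in chow males. Summed fibroblast markers were 1220 to 1508 CPM in high-fat females against 1036 to 1152 CPM in high-fat males. The part of clock phase and cell makeup in the sex differences of these genes was not tested, and sex and any difference in hour of collection cannot be told apart.

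Of 21 further genes of lipase regulation and lipoprotein binding, 17 were tested, and 2 were called in females on diet, both higher: Pcsk6, a protease of the family that cleaves the lipase, by 0.32 ± 0.06 log2 (edgeR adjusted p = 0.00909), and the heparan sulfate proteoglycan Hspg2 by 0.38 ± 0.09 (adjusted p = 0.0298), where 2.53% of all genes were called. Over 17 libraries they were higher by 0.21 ± 0.04 (adjusted p = 0.00865) and 0.40 ± 0.10 (adjusted p = 0.0192). None of the 17 was called in males by edgeR over 19 libraries. Over 17 libraries 1 was called higher in males, Plin5, by 0.45 ± 0.09 log2 (adjusted p = 0.0116), and 2 lower. The lower genes were Angptl8 at -1.31 ± 0.32 (adjusted p = 0.0333) and Gpc1 at -0.17 ± 0.04 (adjusted p = 0.0399), where 2.59% of all genes were called. The median diet difference of the 17 genes over 19 libraries was 0.15 log2 in females and -0.12 in males, against -0.02 and 0 over all genes. On the high-fat diet Pcsk6, the endocytic receptor Lrp1 and the lipoprotein receptor Lsr were higher in females than in males, by 0.29, 0.32 and 0.44 log2 (adjusted p = 0.00571, 0.0254 and 0.0378). Over 17 libraries Pcsk6 alone of these 3 was called (0.18, adjusted p = 0.0124), with Lrp1 at 0.24 (adjusted p = 0.0735) and Lsr at 0.39 (adjusted p = 0.0821). Not called over 19 libraries, Angptl8 was then higher in females by 1.55 ± 0.34 log2 (adjusted p = 0.00765). Plin5 was likewise called only over 17, lower in females by -0.42 ± 0.10 (adjusted p = 0.0136).

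Of 25 further genes of fatty acid uptake and activation, 19 were tested. Acsl1, the main acyl-CoA synthetase of heart, had 1741, 1632, 1727, 2029 and 2154 CPM in high-fat females against 1539, 1487, 1452, 1452 and 1704 CPM in chow females. It rose by 0.28 ± 0.07 log2 in females (edgeR adjusted p = 0.0484) and was the 1 gene of the 19 called there; without high-fat females 4 and 5 none was. In males 0 of 19 were called over 19 libraries and 1 over 17. Acsl1 had 1989, 1844, 1718, 1808 and 1770 CPM in high-fat males against 1608, 1620, 1620 and 1427 CPM in chow males. Acsl6, a synthetase known from brain, was lower in females than in males on chow, by -0.72 ± 0.12 log2 (adjusted p = 0.00221), and on the high-fat diet, by -0.77 ± 0.11 (adjusted p = 0.000439). Fabp7, the brain binding protein, was lower in females on the high-fat diet by -1.21 ± 0.38 (adjusted p = 0.0494), at under 1 CPM in all libraries.

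Compared per length, as the median CPM per kilobase over coding pieces of at least 100 bases, the 10 genes spanned a wide range. Because 1 read can add to more than 1 piece, counts did not scale with piece length. In Angptl4 a piece of 111 bases had a mean of 94.3 counts and 1 of 661 bases had 191. Short pieces thus give higher values per kilobase, and the order of genes at near levels depends in part on piece lengths. Fabp3 was the highest by this measure, with a median of 3474 over the 19 libraries and a lowest library of 2863, above every library of every other gene. Lpl followed with a median of 1372 (213 to 1693), then Cd36 with 943 (745 to 1308) and Fabp4 with 691 (561 to 829), and these neighbours overlapped in their ranges. Vldlr at 99.1 (72.4 to 114), Slc27a1 at 91.2 (66.2 to 124), Gpihbp1 at 68.5 (55.0 to 79.6) and Fabp5 at 49.6 (37.9 to 62.5) also overlapped from one to the next. Lmf1 at 14.0 (11.3 to 17) and Angptl4 at 9.34 (1.55 to 30.9) were the lowest by this measure. Angptl4 was the most variable, and its level per kilobase in the highest libraries passed that of Lmf1.

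By likeness over the 19 libraries, the nearest gene within the list was Fabp5 for Gpihbp1 (0.15), Fabp3 for Lmf1 (0.17), Cd36 for Vldlr (0.20), Fabp4 for Fabp3 (0.15), Fabp4 for Fabp5 (0.12) and Fabp5 for Slc27a1 (0.19). The nearest gene to Lpl was Vldlr, at 0.59, and the nearest to Angptl4 was Slc27a1, at 1.0. Over 17 libraries Lpl was nearest to Lmf1, at 0.20, and Angptl4 again to Slc27a1, at 1.05.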

How the data were processed

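Counts were used as deposited: per the file headers and values, 19 files hold whole-number counts for 425461 pieces of exons, so that 1 read can add to more than 1 piece. The submitters' processing notes name DESeq2 1.32.0, Salmon 1.5.1 and, as build, GRCm39; the piece coordinates are those of GRCm38, since 90.7% of genes have the same chromosome, start and end in GENCODE vM21. The counting tool and its strand setting are not given in the sources used here. Pieces were summed per gene ID; pieces shared by several genes (1.35% to 1.49% of counts) were not used. edgeR 4.0.16 (R 4.3.3) was fitted to all 19 libraries with 4 groups (filterByExpr, TMM, quasi-likelihood, 15 residual degrees of freedom), with Benjamini-Hochberg adjustment over 18069 genes; tables were made in Python 3.11.15. The fit was tested on simulated data. Alternatives were median-ratio size factors, DESeq2 1.42.0, other filters, only the groups compared, a replicate block, a GC slope covariate, the largest exon piece, the per-gene library joined, and leaving out libraries; coding pieces alone were added after seeing the data. The 10 genes and all lists were chosen with earlier results of these data known. All 10 genes are named; genes of the lipase and uptake lists are named where called over 19 libraries, those of the marker, clock and PPAR lists as examples, and like-pattern genes by smallest distance. An item that met these rules is not reported here. Total counts of 57805110 to 85794067 per library leave counting error small except for genes under 1 CPM. Close copies held few counts: the processed copy Fabp3-ps1 had 10245 counts against 3770306 for Fabp3, and Fabp5l2 had 4 against 40654 for Fabp5.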

Additional observations from a re-analysis of the deposited data

Results flagged for a closer look

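Among 40 sets of 1 gene in 1 group, 2 held a library far from the others of its group by Dixon's test; chance flags about 1 group in 20. Vldlr in chow male 3 was 484 CPM, where the nearest other chow male had 443 CPM. Fabp3 in chow female 5 was 2962 CPM, where the nearest other chow female had 2429 CPM.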

How the results depend on the processing

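Of 1540 comparisons of single-gene values with an alternative, 1472 kept their side of the threshold, 40 lost and 28 gained a call, and no called value reversed; 31 of the 1472, not called, changed sign, with sizes of at most 0.16. The number of the 10 genes called in females (0 over 19 libraries) was 1 by DESeq2, at 1 CPM in 5 libraries, without high-fat females 4 and 5, with the GC covariate and over coding pieces without both libraries, and 0 to 2 with 1 library left out. In males (3) it was 6 with only the groups compared, without high-fat females 4 and 5, with the GC covariate and over coding pieces without both libraries, 4 by DESeq2, at 1 CPM in 5 libraries and with the per-gene library joined, and 1 to 4 with 1 library left out. For females against males on chow (2) it was 0 with no filter, 1 over the largest piece and 0 to 2 with 1 library left out. For females against males on high fat (2) it was 1 with only the groups compared, 1 over the largest piece and 2 to 3 with 1 library left out; with the GC covariate it was 2, Cd36 and Fabp3 in place of Vldlr and Cd36. The difference of diet effects had 0 under all 30 alternatives run. The cause was not tested. With the replicate block the numbers called among the 10 genes were 0 in females, 2 in males (Angptl4 and Fabp4, without Cd36) and 0 for the difference. They were 1 on chow and 2 on high fat. Deviations of same-numbered samples from their group means correlated by -0.07 to 0.16. Pairs with different numbers were not compared, so these values cannot show whether samples were paired. Over all genes, calls ran from 21 to 993 in females (457 over 19 libraries), 42 to 572 in males (138), 0 to 58 for the difference (0), 259 to 1916 on chow (582) and 547 to 3447 on high fat (1866). Leaving out 1 library was not run for the genes of the other lists. Depth limits only genes such as Fabp7, under 1 CPM.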

Other observations

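The genes nearest to Lpl were looked up after its values were seen. Over 19 libraries they were Dbt, Ppm1k and Acadsb, at 0.10, 0.12 and 0.13 log2 root mean square difference. Dbt is a subunit of the complex that oxidizes branched-chain keto acids, Ppm1k is the phosphatase that activates it, and Acadsb acts later in the same pathway. Dbt had 63.3, 59.5, 54.0, 15.5 and 8.72 CPM in high-fat females, against 69.5 to 77.4 CPM in chow females. Over the 17 libraries without high-fat females 4 and 5, the nearest genes were Gcdh, Oxct1 and Echs1, at 0.07, 0.08 and 0.08. Oxct1, which starts ketone body oxidation, had 1120 to 1247 CPM in high-fat females against 1465 to 1561 CPM in chow females, and 1185 to 1322 CPM in high-fat males against 1526 to 1701 CPM in chow males, and it did not share the deficit of Lpl in high-fat females 4 and 5.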
